A study of Mus musculus with 6 samples.

Results

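The genes described here are those of the integrated stress response and of the amino acid supply it controls, in mouse glioblastoma cultures labelled ATRX knockout (ATRX KO) or ATRX wild type (ATRX WT). They were chosen by name, with earlier results of these data known. In all, 51 genes were listed by role. The 50 that are rows of the deposited expression table were taken, out of 13069 genes in that table. The 50 are 4 kinases, 6 transcription factors, 6 effectors, 3 enzymes of cysteine and asparagine synthesis, 3 of serine synthesis, 6 of one-carbon metabolism, 2 of proline synthesis, and 20 cytosolic aminoacyl-tRNA synthetases. The listed gene Vldlr-as was not analysed here.

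The integrated stress response starts with kinases that sense different kinds of stress and phosphorylate the initiation factor eIF2 on its alpha subunit. This slows most protein synthesis and favours translation of a few messages, among them that of the transcription factor ATF4. ATF4, often together with C/EBP proteins, switches on genes that import and make amino acids, charge tRNAs, and feed back on the response itself. Glioma cells draw on the same serine and one-carbon enzymes for nucleotides and redox balance.

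RNA was sequenced from neurosphere cultures of tumours raised by injecting Sleeping Beauty transposon plasmids into the ventricles of newborn mice of the C57BL/6 or FVB strain. Both groups carry a short hairpin against p53 (shp53) and overexpress NRAS, and the ATRX KO group is set apart by its ATRX status. The labels give that status as a knockout and also describe a plasmid with a short hairpin against ATRX (shATRX), so which was used is not settled, and neither is the mouse strain of each culture. The culture medium was one for neural stem cells, supplemented with B-27 and N-2 and fed with EGF and FGF, and RNA came from whole cultures.

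Each group has 3 libraries, called biological replicates in the series' design, and all 3 of a group carry the same line code, so genotype and cell line cannot be told apart. The p-values therefore set differences against the variation among these libraries only, and that variation may be technical. The table held 22177228 to 32477269 reads per ATRX KO library and 34966108 to 38039847 per ATRX WT library. Atrx itself stood at 14.1 to 17.1 RPKM (reads per gene length and library size) in ATRX KO against 21.6 to 22.7 RPKM in ATRX WT, a log2 difference of -0.48 (limma adjusted p = 0.00013). Libraries of a group correlated at 0.997 to 0.998 across genes, and libraries of different groups at 0.592 to 0.599. The cultures also differed in markers of cell type. The 10 mesenchymal markers summed to 2381 to 2628 RPKM in ATRX KO against 7.67 to 8.14 RPKM in ATRX WT. Of these, 8 were tested and all 8 rose. The test asked for log2 RPKM 0 in 3 or more libraries. All but Fn1 of the 8 were below that in every ATRX WT library. ATRX KO alone admitted them, which fixed their direction. Thy1, which was lower in ATRX KO (mean 0.656 against 1.12 RPKM), and Col1a2 (mean 0.635 against 0.0555 RPKM) were not tested. The 7 of 10 neural stem and astrocyte markers in the table summed to 79.6 to 86.3 RPKM in ATRX KO against 3324 to 3395 RPKM in ATRX WT. Most of the ATRX WT sum came from Fabp7 (mean 0.143 in ATRX KO against 2757 RPKM in ATRX WT). Sox2 (19.8 against 80.4 RPKM) and Nes (28.3 against 91.2 RPKM) were lower too, by far less. Neuronal markers, 9 of 10 in the table, summed to 13.8 to 15.3 RPKM against 225 to 234 RPKM, with Dcx at 0 reads in ATRX KO. Oligodendrocyte-lineage markers, 7 of 10, summed to 41.3 to 44.9 RPKM against 279 to 288 RPKM, with Olig1 and Bcas1 at 0 reads in ATRX KO. Of the 5 tested in that list 3 fell and 2, Pdgfra and Cspg4, rose, by 3.21 and 2.06 on the log2 scale. The 3 that fell were admitted to the test through ATRX WT only. Of 10 microglial markers only 2 are in the table, Cd68 (mean 27.8 against 5.83 RPKM) and Tmem119 (4.57 against 0.0702 RPKM). These 2 summed to 30.6 to 35.1 RPKM against 5.60 to 6.36 RPKM, mostly from Cd68. The other listed ones, among them Ptprc, Csf1r and P2ry12, are absent from it, so the sum does not measure microglia. Endothelial markers, 6 of 10, summed to 23.7 to 25.3 RPKM against 6.54 to 6.95 RPKM, where 4 of 5 tested rose and Esam fell by 4.28 on the log2 scale. Cdh5 and Emcn were admitted to the test through ATRX KO only, and Esam through ATRX WT only. These marker sums differ between the same groups as every result below, and their part in the results was not tested.

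Most of the stress response and amino acid supply genes were higher in ATRX KO. Of the 50, 45 rose, 4 fell and 1 (Shmt1) gave no call in a limma fit of the deposited log2 RPKM over 12201 tested genes, with a threshold of 0.05 on the Benjamini-Hochberg adjusted p. Over all tested genes 43.6% were called higher and 45.9% lower. The 4 that fell were Eif2ak1, Eif2ak3, Cbs and Farsa. As the genes were listed with earlier results known, their contrast with all tested genes is no finding by itself and was not tested. The median log2 difference, ATRX KO minus ATRX WT, was 1.36 over the 50 genes and -0.02 over all tested genes. By a stricter rule that also asks for a log2 difference of at least 1, 31 of the 50 were higher and 2 (Eif2ak3 and Cbs) lower, beside 17.2% and 19.6% of all tested genes. For 45 genes every ATRX KO library lay above every ATRX WT library, and for 4 every one lay below, where all tested genes gave 44% and 46.5%. All 50 passed the filter on low values, and all 50 had a mean log2 RPKM of at least 0 in both groups. In bulk RNA, a lower level can come from fewer cells of a type or from less RNA per cell, and these cannot be told apart.

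**Figure D1:**
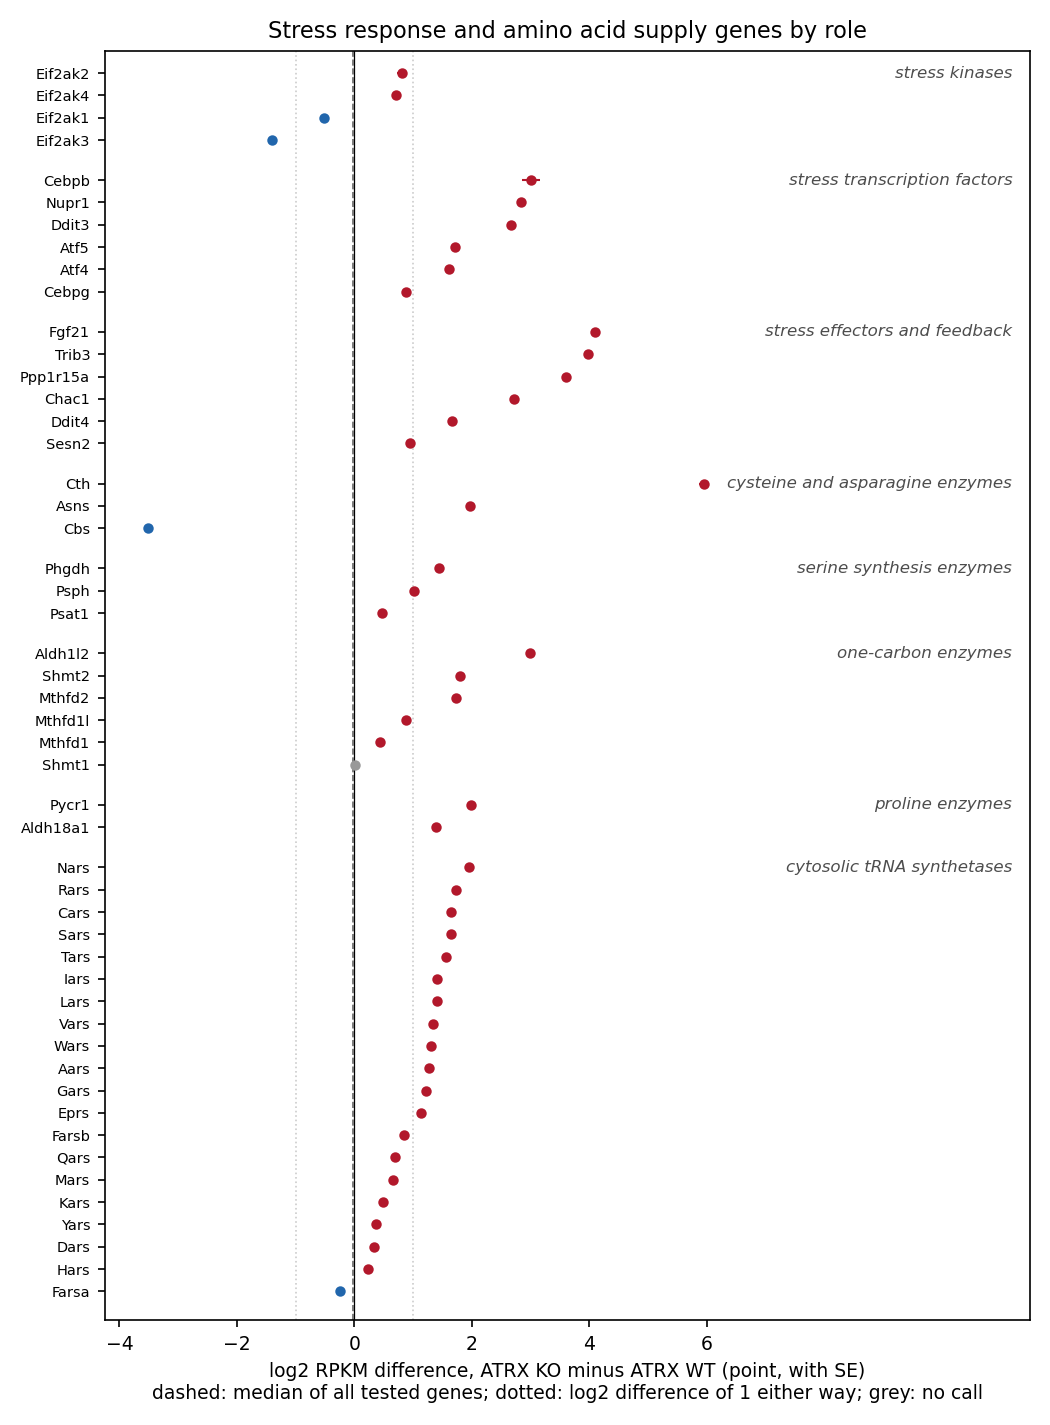
Log2 RPKM difference, ATRX KO minus ATRX WT, for each of the 50 genes by role, as a point with its standard error (red higher, blue lower, grey no call), with a dashed line at the median of all tested genes. The factors, effectors and synthetases lie to the right of the dashed line except Farsa, while the kinases lie on both sides, and Cth (5.95) and Cbs (-3.51) stand at the ends.

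The 4 kinases that phosphorylate eIF2 did not move together. Eif2ak3, which encodes PERK, the sensor of unfolded protein in the endoplasmic reticulum, gave 6.98, 6.92 and 7.34 RPKM in ATRX KO against 18.96, 19.2 and 18.3 RPKM in ATRX WT, listed by replicate 1, 2 and 3, the order used for all values below. It was lower in every ATRX KO library, by a log2 difference of -1.41 (SE 0.041, limma adjusted p = 2.5e-09). Eif2ak1, which encodes the heme-regulated kinase HRI, was also lower, with 15.6, 15.3 and 15.5 RPKM against 22.0, 22.1 and 21.9 RPKM and a log2 difference of -0.51. Eif2ak4, which encodes GCN2, the kinase activated by uncharged tRNA, was higher, with 13.0, 12.8 and 13.0 RPKM against 7.82, 7.76 and 8.19 RPKM and a log2 difference of 0.71 (SE 0.039, limma adjusted p = 1.9e-07). Eif2ak2, which encodes the double-stranded RNA sensor PKR, was higher by 0.81, and its ATRX KO libraries were the most spread of the 4, at 10.6, 13.5 and 11.8 RPKM against 6.66, 7.02 and 6.70 RPKM. None of the 4 overlapped between groups, as held for 11040 of all 12201 tested genes. The kinases act by phosphorylation, which RNA levels do not measure.

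All 6 transcription factors rose, 5 of them by a log2 difference of at least 1, with a median of 2.19. Atf4 was the most abundant of the 6 per length in both groups. It was measured at 485, 482 and 484 RPKM in ATRX KO and at 165, 154 and 158 RPKM in ATRX WT, that is, at 484 ± 1.80 against 159 ± 5.53 RPKM (SD, n = 3 each). The 3 ATRX KO libraries were close to each other and all above ATRX WT, with a log2 difference of 1.60 (SE 0.032, limma adjusted p = 2.5e-10). Atf5, a relative of Atf4 that is also translated preferentially under stress, had 127, 128 and 129 RPKM against 38.2, 38.2 and 41.3 RPKM, a log2 difference of 1.71.

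Ddit3 encodes CHOP, the factor linked to cell death under prolonged stress. Its libraries read 204, 189 and 189 RPKM in ATRX KO and 31.6, 29.3 and 31.0 RPKM in ATRX WT, so that the lowest ATRX KO library was 5.99 times the highest ATRX WT library (log2 difference 2.66, SE 0.040, limma adjusted p = 6.1e-11). Nupr1, a small stress-induced chromatin protein, had 262, 249 and 235 RPKM against 36.2, 33.2 and 35.2 RPKM, a log2 difference of 2.83. Both genes were separated between the groups by a gap far wider than the spread within either.

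Cebpb and Cebpg encode C/EBP proteins that can pair with ATF4. Cebpb had the largest difference of the factors, 3.00 on the log2 scale, and also the largest error (SE 0.155, limma adjusted p = 1.1e-07), as ATRX KO replicate 2 stood apart at 83.8 RPKM from replicates 1 and 3 at 135 and 129 RPKM. The ATRX WT libraries held 13.9, 14.3 and 14.2 RPKM, below all of these. Cebpg rose least of the 6, from 30.4, 29.5 and 29.4 RPKM in ATRX WT to 50.7, 56.7 and 57.1 RPKM in ATRX KO, a log2 difference of 0.88.

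**Figure D2:**
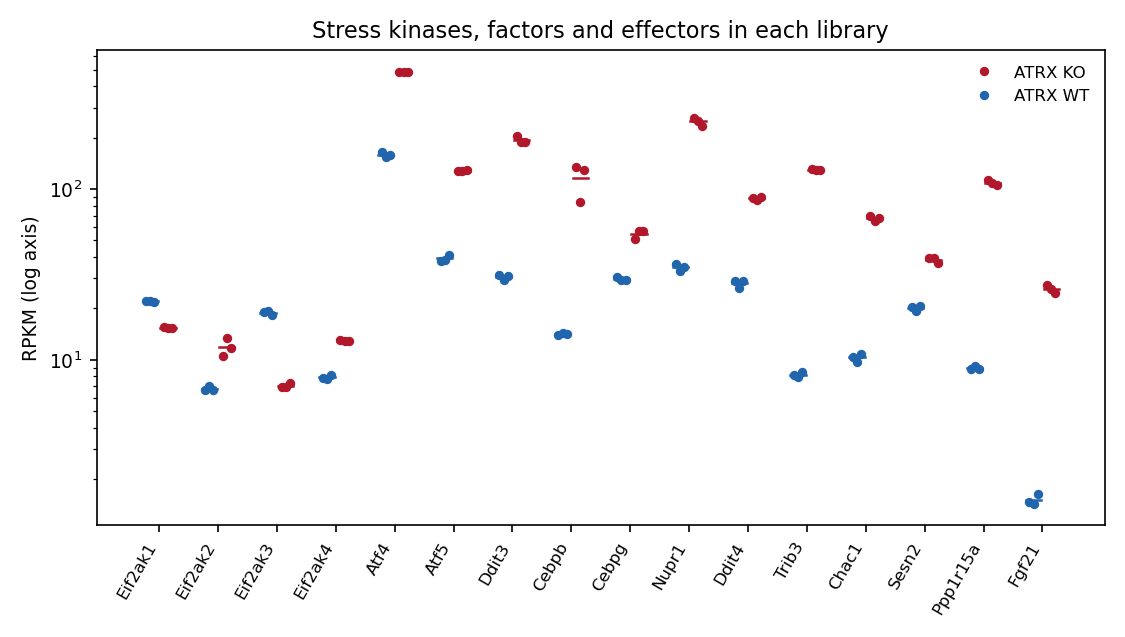
RPKM on a log axis for the kinases, factors and effectors in each library, with a short line at the mean of 3 libraries, ATRX WT in blue and ATRX KO in red. The ATRX KO points lie above the ATRX WT points for every gene except Eif2ak1 and Eif2ak3, and Cebpb in ATRX KO has 1 library at 83.8 RPKM below the other 2.

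The 6 effectors rose too, 5 of them by at least 1, and their median difference of 3.15 was the highest of the role groups. Fgf21, a hormone released by stressed cells, had the largest difference of the 6, with 27.4, 26.0 and 24.7 RPKM in ATRX KO against 1.47, 1.44 and 1.64 RPKM in ATRX WT (log2 difference 4.10, SE 0.066, limma adjusted p = 8.1e-11). It also had the fewest reads of the 50 genes in ATRX WT, 162 over the 3 libraries, against 1909 in ATRX KO. Trib3, a pseudokinase that binds ATF4 and CHOP and restrains them, was at 131, 129 and 129 RPKM against 8.14, 7.93 and 8.55 RPKM (log2 difference 3.98, SE 0.034, limma adjusted p = 4.0e-12). For both genes the lowest ATRX KO library was at least 15.04 times the highest ATRX WT library.

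Ppp1r15a encodes GADD34, the phosphatase subunit that reverses eIF2 phosphorylation. It had 113, 108 and 105 RPKM in ATRX KO against 8.84, 9.21 and 8.88 RPKM in ATRX WT, a log2 difference of 3.60. Chac1, an enzyme that degrades glutathione, had 69.9, 65.2 and 67.9 RPKM against 10.4, 9.73 and 10.8 RPKM, a log2 difference of 2.71. Ddit4 encodes REDD1, an inhibitor of mTORC1, and had 89.2, 86.8 and 90.0 RPKM against 29.1, 26.2 and 28.9 RPKM, a log2 difference of 1.66. Sesn2, an inhibitor of mTORC1 that binds leucine, differed least, with 36.7 to 39.7 RPKM against 19.4 to 20.6 RPKM and a log2 difference of 0.94. No effector overlapped between the groups, nor did 11040 of all 12201 tested genes.

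ATF4 paired with a C/EBP protein is known to bind the C/EBP-ATF response element, whose letters are TGATGNAA, or TTNCATCA when read on the other strand. These letters were searched on both strands in the RefSeq promoter table for GRCm38.p6, which gives 300 bases for each start site, 250 before it and 50 after. Of the 50 genes, 41 have an entry there, and 11 of these 41 (26.8%) hold the letters, beside 248 of 9323 tested genes with an entry (2.66%) and 1219 of 27025 symbols of the whole table (4.51%). By size of difference, 10 of the 23 genes that rose by at least 1 hold them (43.5%) and 1 of the other 18 (5.56%), where all tested genes that rose by at least 1 gave 77 of 1575 (4.89%) and those that fell by at least 1 gave 43 of 1753 (2.45%). The genes without an entry, Cth, Aldh1l2, Cars, Hars, Lars, Nars, Rars, Vars and Wars, were not searched. All of these but Hars rose by at least 1. A match describes the letters in this window and is neither a bound site nor a cause, and a window without one says nothing of the factor. The 50 genes were listed for their role in this response with earlier results known. An excess over all tested genes is therefore no finding by itself, and neither it nor the split by size was tested.

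The stretches of the 4 stress genes with a match are printed to show where the element lies in genes that rose from 6.55-fold to 17.2-fold. They were found by these letters, so their likeness in capitals is no finding. The stretches lie at chr7:126625527-126625626 for Nupr1 (minus strand), chr2:152344028-152344057 for Trib3 (minus strand), chr2:119351003-119351102 for Chac1 (plus strand) and chr7:45615576-45615675 for Fgf21 (minus strand), and capitals mark the element.
Nupr1: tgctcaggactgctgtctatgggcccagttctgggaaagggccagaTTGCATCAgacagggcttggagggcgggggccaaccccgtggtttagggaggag
Trib3: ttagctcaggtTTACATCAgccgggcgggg
Chac1: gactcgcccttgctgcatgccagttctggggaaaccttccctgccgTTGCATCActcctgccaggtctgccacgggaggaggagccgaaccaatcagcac
Fgf21: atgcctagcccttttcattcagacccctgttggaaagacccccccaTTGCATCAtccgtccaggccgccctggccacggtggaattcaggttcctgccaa
All 4 hold the element on the strand opposite to the gene. The first capital stands at position -110 from the start site in Nupr1, at 15 in Trib3, at -193 in Chac1 and at -139 in Fgf21, where -1 is the base before the start and 1 the first transcribed base.

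The cysteine enzymes gave the largest rise (Cth) and the largest fall (Cbs) of the 50 genes. Cth, cystathionine gamma-lyase, which releases cysteine from cystathionine in the last step of transsulfuration, was read at 187, 190 and 197 RPKM in ATRX KO and at 3.56, 2.66 and 3.09 RPKM in ATRX WT. The means were 191 ± 5.13 and 3.10 ± 0.449 RPKM (SD, n = 3 each), a ratio of 61.6, from 26465 and 648 reads over the 3 libraries. Its log2 difference of 5.95 (SE 0.090, limma adjusted p = 6.0e-11) ranked 159 from the highest among all 12201 tested genes. Cbs, cystathionine beta-synthase, which makes cystathionine in the step before, was at 3.84, 3.56 and 3.72 RPKM in ATRX KO and at 41.4, 41.5 and 43.7 RPKM in ATRX WT. Here every ATRX WT library was higher, by a ratio of means of 11.4, with 713 against 12436 reads (log2 difference -3.51, SE 0.043, limma adjusted p = 2.1e-11). So Cth was abundant and Cbs scarce in ATRX KO, and the reverse held in ATRX WT.

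Asns, asparagine synthetase, a target often used to read out the amino acid response, was at 344, 358 and 349 RPKM against 89.6, 88.3 and 89.2 RPKM, with no overlap and a log2 difference of 1.97 (SE 0.026, limma adjusted p = 3.1e-11). Its promoter and that of Pycr1, a proline enzyme described below, hold the element in the sense direction, at positions -23 and -103. The stretches are chr6:7693210-7693278 for Asns and chr11:120643798-120643897 for Pycr1, both on the minus strand, with the element in capitals.
Asns: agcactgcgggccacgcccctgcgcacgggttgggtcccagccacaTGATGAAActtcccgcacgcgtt
Pycr1: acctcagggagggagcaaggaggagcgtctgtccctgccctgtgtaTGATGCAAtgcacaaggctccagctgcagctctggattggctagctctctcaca

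All 3 enzymes that make serine from a glycolytic intermediate rose, by unequal amounts. Phgdh, the first of the route, had 192, 178 and 183 RPKM in ATRX KO and 66.5, 67.4 and 70.6 RPKM in ATRX WT, a log2 difference of 1.44 (SE 0.036, limma adjusted p = 1.1e-09). Psph, the last, had 90.2, 89.9 and 93.6 RPKM against 46.1, 44.8 and 44.9 RPKM, a log2 difference of 1.01. Psat1, the transaminase between them, was the most abundant of the 3 per length in both groups and moved least, with 223 to 225 RPKM against 160 to 162 RPKM and a log2 difference of 0.47 (limma adjusted p = 9.5e-08). The groups did not overlap for any of the 3, nor for 11040 of all 12201 tested genes.

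In one-carbon metabolism 5 of 6 enzymes rose, with larger differences for the mitochondrial enzymes than for the cytosolic ones. Aldh1l2, which turns mitochondrial formyl-tetrahydrofolate into carbon dioxide and NADPH, had 102, 103 and 101 RPKM in ATRX KO against 12.9, 12.4 and 13.1 RPKM in ATRX WT (log2 difference 2.99, SE 0.030, limma adjusted p = 8.0e-12). Shmt2, which splits serine in mitochondria, had 334, 321 and 324 RPKM against 92.0, 92.1 and 96.3 RPKM, a log2 difference of 1.81. Mthfd2, the next mitochondrial step, had 191, 198 and 191 RPKM against 58.4, 57.3 and 58.6 RPKM, a log2 difference of 1.73.

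Mthfd1l, which releases formate from mitochondria, rose by 0.88 on the log2 scale, from 22.6 to 23.8 RPKM in ATRX WT to 41.7 to 43.4 RPKM in ATRX KO. The cytosolic enzyme Mthfd1 rose by 0.43, from 35.3 to 36.2 RPKM to 47.2 to 49.7 RPKM. Shmt1, the cytosolic counterpart of Shmt2, was at 34.9, 34.9 and 33.2 RPKM in ATRX KO and at 33.6, 34.1 and 33.9 RPKM in ATRX WT. Its groups overlapped, the log2 difference was 0.02 (SE 0.030, limma adjusted p = 0.56), and its sign turned to -0.18 and -0.10 under other scalings of the libraries. So 4 mitochondrial enzymes differed by 0.88 to 2.99 and both cytosolic enzymes by 0.43 or less, which describes these 6 genes and was not tested as a difference between compartments. Outside these 6, the cytosolic Aldh1l1 had a log2 difference of -10.12 and the mitochondrial Mthfd2l one of -0.475, so the contrast is limited to the listed genes.

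Both proline enzymes rose. Aldh18a1, which begins proline synthesis from glutamate, had 130.0, 128 and 127 RPKM against 49.1, 48.1 and 49.9 RPKM, a log2 difference of 1.39 (SE 0.026, limma adjusted p = 1.7e-10). Pycr1, which ends it, had 16.6, 15.1 and 15.8 RPKM against 3.99, 4.00 and 4.04 RPKM, a log2 difference of 1.98 (SE 0.048, limma adjusted p = 8.2e-10). Pycr1 was far less abundant per length than Aldh18a1 in both groups.

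**Figure D3:**
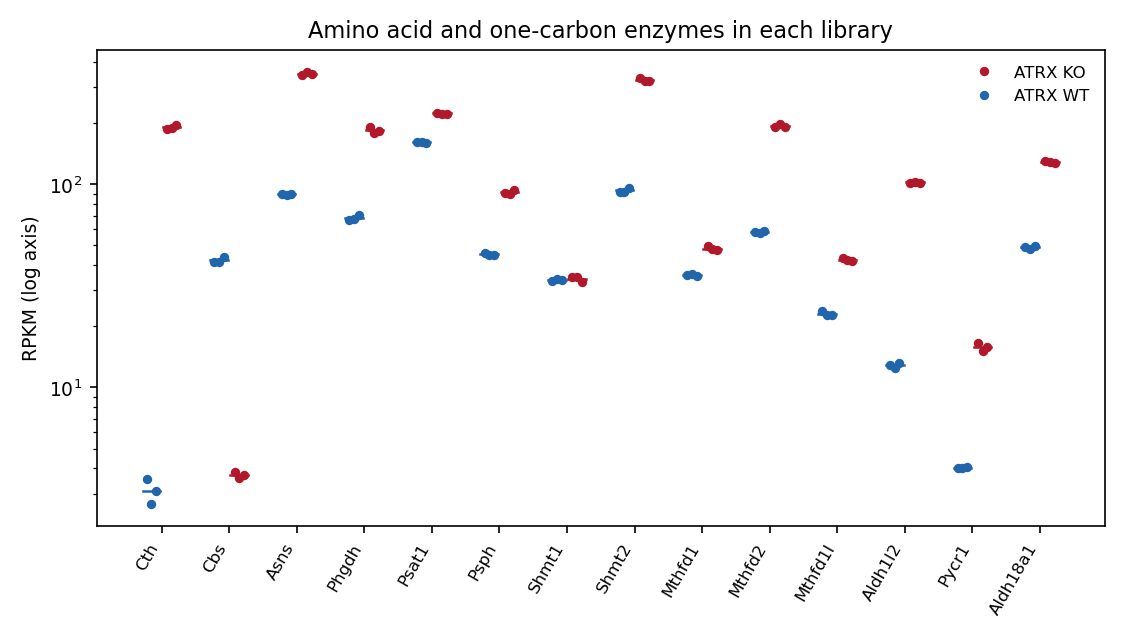
RPKM on a log axis for the amino acid and one-carbon enzymes in each library, with a short line at the mean of 3 libraries, ATRX WT in blue and ATRX KO in red. Cth lies near 3.10 RPKM in ATRX WT and 191 RPKM in ATRX KO, Cbs is reversed, and Shmt1 is the 1 gene whose points overlap.

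Cytosolic aminoacyl-tRNA synthetases load each amino acid on its tRNA. Of the 20 measured, 19 rose and 1 fell, with a median log2 difference of 1.25. None of them overlapped between groups, as held for 11040 of all 12201 tested genes. Mean levels of the 20 ran from 33.8 to 128 RPKM in ATRX WT, with a median of 61.8 RPKM, and from 49.2 to 494 RPKM in ATRX KO, with a median of 136 RPKM. They fell into 12 with differences of at least 1, 3 between 0.5 and 1 and 5 below 0.5.

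Nars, for asparagine, had the largest difference of the 20 and the highest level in ATRX KO, while Gars was slightly higher in ATRX WT. It was at 494, 504 and 486 RPKM in ATRX KO against 129, 128 and 126 RPKM in ATRX WT (log2 difference 1.95, SE 0.027, limma adjusted p = 4.1e-11). Rars, for arginine, had 229, 242 and 234 RPKM against 71.6, 71.2 and 69.4 RPKM, a log2 difference of 1.73. Cars, for cysteine, had 106, 107 and 104 RPKM against 33.2, 33.8 and 34.4 RPKM, a log2 difference of 1.65. In all 3 the lowest ATRX KO library was at least 3.04 times the highest ATRX WT library. Sars, for serine, had 268, 258 and 255 RPKM against 84.2, 83.1 and 82.5 RPKM, a log2 difference of 1.64. Tars, for threonine, had 175, 173 and 177 RPKM against 58.8, 59.2 and 59.2 RPKM, a log2 difference of 1.57. These 2 followed closely behind.

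The 7 others past 1 covered a range from 1.13 to 1.41. Iars, for isoleucine, had 129, 130.0 and 128 RPKM against 46.8, 49.2 and 50.1 RPKM, and Lars, for leucine, had 142, 144 and 141 RPKM against 53.0, 54.3 and 54.4 RPKM. Vars, for valine, had 116, 110.0 and 111 RPKM against 43.6, 43.9 and 46.1 RPKM, so the synthetases of the 3 branched-chain amino acids differed by similar amounts, 1.41, 1.40 and 1.33 on the log2 scale. Wars, for tryptophan, had 161, 149.9 and 154 RPKM against 61.9, 61.6 and 64.7 RPKM, a log2 difference of 1.30. Aars, for alanine, had 239, 228 and 222 RPKM against 93.2, 95.0 and 97.5 RPKM, a log2 difference of 1.27. For each of these 5 genes the lowest ATRX KO library was at least 2.28 times the highest ATRX WT library. Gars, for glycine, was the steadiest within groups, with 299, 299.9 and 299.6 RPKM against 128, 128 and 128 RPKM (log2 difference 1.22, SE 0.023, limma adjusted p = 2.0e-10). Eprs, which charges both glutamate and proline, had 172, 189 and 180 RPKM against 81.2, 84.0 and 81.9 RPKM, a log2 difference of 1.13.

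Smaller differences were measured for Farsb (0.84), Qars for glutamine (0.69), Mars for methionine (0.65), Kars for lysine (0.48), Yars for tyrosine (0.37), Dars for aspartate (0.33) and Hars for histidine (0.24). Kars and Yars were among the more abundant of the 20 in ATRX WT, at 114 and 97.2 RPKM on average. The call for Hars was lost under 2 other scalings, at log2 differences of 0.04 and 0.06. Farsa and Farsb encode the 2 subunits of the phenylalanine enzyme and moved in opposite directions. Farsa had 51.0, 47.4 and 49.1 RPKM in ATRX KO against 57.9, 58.0 and 59.0 RPKM in ATRX WT, a log2 difference of -0.25 (SE 0.032, limma adjusted p = 7.3e-05), and Farsb had 97.5, 105 and 103 RPKM against 56.7, 56.7 and 57.2 RPKM.

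**Figure D4:**
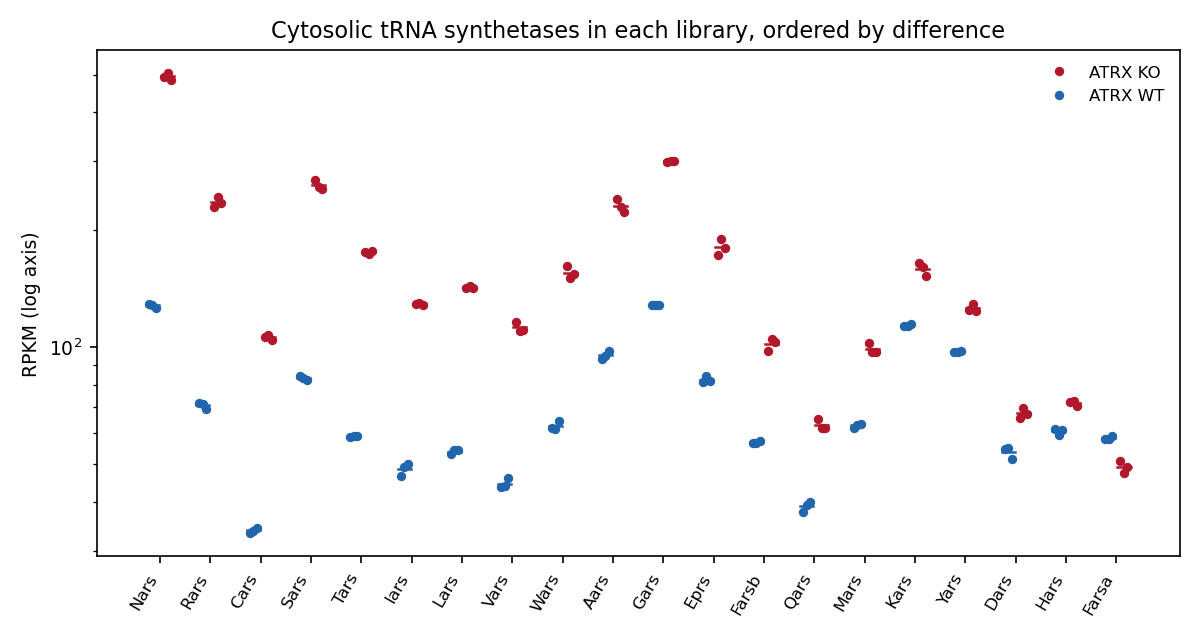
RPKM on a log axis for the 20 cytosolic aminoacyl-tRNA synthetases in each library, ordered by their log2 difference, with a short line at the mean of 3 libraries, ATRX WT in blue and ATRX KO in red. The ATRX KO points lie above the ATRX WT points from Nars to Hars and below them for Farsa.

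The promoter table has an entry for 13 of the 20 synthetases, and 5 of the 13 (38.5%) hold the C/EBP-ATF letters. Among mitochondrial synthetases 0 of 16 with an entry hold them. These shares are of lists chosen by role and were not compared by a test. The stretches of 4 cytosolic synthetases that rose by at least 1 are printed with that of Yars, the 1 gene below 1 with a match. They are chr8:111033684-111033783 for Aars, chr6:55037925-55038000 for Gars, chr13:49682126-49682155 for Iars and chr4:129189895-129189924 for Yars, all on the plus strand, and chr15:11399659-11399719 for Tars on the minus strand. Capitals mark the element.
Aars: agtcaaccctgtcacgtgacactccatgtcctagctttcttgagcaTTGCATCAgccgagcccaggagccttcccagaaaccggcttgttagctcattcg
Gars: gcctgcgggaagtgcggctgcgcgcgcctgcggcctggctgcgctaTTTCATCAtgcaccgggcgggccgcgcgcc
Iars: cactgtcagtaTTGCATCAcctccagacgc
Tars: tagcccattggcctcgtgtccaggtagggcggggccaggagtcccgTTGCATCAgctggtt
Yars: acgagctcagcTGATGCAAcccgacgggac
The first capital stands at -112 in Aars, which holds a second match at 10, at -30 in Gars, at 8 in Iars, at -15 in Tars and at 4 in Yars. In Yars the element is in the sense direction and in the other 4 it is on the opposite strand.

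The machinery upstream of ATF4 differed less than its factors and effectors. For this list and those below, all tested genes gave 43.6% higher and 45.9% lower, and 17.2% and 19.6% by at least 1. In the list of eIF2 and eIF2B subunits, which also holds the separate initiation factor Eif2a, 7 of 9 genes rose and 2 fell, with a median log2 difference of 0.44. eIF2B is the exchange factor that phosphorylated eIF2 blocks, and its subunits Eif2b3, Eif2b2 and Eif2b5 rose by 1.52 (beside a median of 1.06 over 79 neighbours on chromosome 4), 0.96 and 0.92, while Eif2b4 fell by 0.47 and Eif2s3x, the eIF2 gamma subunit, fell by 0.80. Of the relay genes and eIF2 phosphatase parts all 7 tested rose, with a median of 0.51, though Nck1 (0.15) lost its call under both other scalings (-0.05 and 0.04). Oma1, a protease that starts the signal from mitochondria, rose by 1.34, beside a median of 1.24 over 46 neighbours within 5 Mb on chromosome 4, Abcf3 by 0.85 and Impact, an inhibitor of GCN2 activation, by 0.62. Oma1 was a low gene, with 6.94, 7.83 and 6.34 RPKM in ATRX KO and 2.99, 2.66 and 2.65 RPKM in ATRX WT.

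Other genes linked to ATF4 or CHOP rose as the effectors did: 18 of 20 rose and 2 fell, and the median difference was 2.17. Of the 20, 16 rose by at least 1, beside 17.2% of all tested genes. Cebpd, a C/EBP factor, rose by 4.28, from 3.11, 2.69 and 2.45 RPKM in ATRX WT to 58.0, 46.2 and 56.4 RPKM in ATRX KO, with replicate 2 the lowest of its group as in Cebpb. Atf3, a stress factor downstream of ATF4, had 37.2, 36.0 and 37.4 RPKM against 2.66, 2.93 and 2.74 RPKM, a log2 difference of 3.73 (SE 0.047, limma adjusted p = 2.5e-11). Tnfrsf10b, the death receptor DR5, rose by 3.54. The 2 that fell were Sesn1, a relative of Sesn2 better known as a p53 target, by 1.22, and Wars2, the mitochondrial tryptophan synthetase, by 0.40.

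In the unfolded protein response outside these genes 14 of 19 rose, 4 fell and Manf was without a call, and the median was 0.44. The sensors Ern1, which encodes IRE1 alpha, and Atf6 rose most, by 2.56 and 2.46, in contrast to the third sensor, Eif2ak3. Ern1 had 17.6, 18.3 and 17.0 RPKM against 3.06, 3.03 and 2.86 RPKM, and Atf6 had 60.4, 60.9 and 60.4 RPKM against 11.3, 10.9 and 10.7 RPKM. Xbp1, the factor whose message IRE1 splices, rose by 1.45. Sdf2l1, Dnajc10 and Calr, which help proteins fold in the endoplasmic reticulum, fell by 0.63, 0.41 and 0.32.

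Amino acid transporters moved both ways, with 16 of 25 tested higher and 9 lower, beside 43.6% and 45.9% of all tested genes. Their median was 0.73. Slc6a9, a glycine transporter, had 88.1, 87.5 and 86.7 RPKM in ATRX KO against 4.68, 4.79 and 4.84 RPKM in ATRX WT, a log2 difference of 4.20 (SE 0.030, limma adjusted p = 2.3e-12). Slc7a2, a carrier of arginine and lysine, rose by 4.09. Slc38a4, a carrier of small neutral amino acids, had 3080 reads over the ATRX KO libraries against 4 over those of ATRX WT. Slc38a3, a glutamine transporter, Slc43a2, a carrier of large neutral amino acids, and Slc1a3, the glutamate transporter of astrocytes, fell by 3.33, 3.26 and 2.44. Slc7a2 and Slc38a4 passed the filter on low values through ATRX KO only, and Slc43a2 through ATRX WT only, which fixed their direction. Slc1a3 is also one of the astrocyte markers that were lower in ATRX KO as a group.

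The folate and methionine cycles and glycine cleavage gave 13 higher, 10 lower and 1 without a call (Ahcyl1) of 24. Beside these stand 43.6% higher and 45.9% lower of all tested genes. The median of the list was 0.31. Ahcy, which clears S-adenosylhomocysteine, rose by 1.56 and the purine enzyme Gart by 1.32. Aldh1l1, the cytosolic counterpart of Aldh1l2 and an astrocyte marker, had 37 reads over the ATRX KO libraries against 69357 over those of ATRX WT. It fell by 10.12 on the log2 scale, while Aldh1l2 rose by 2.99. The glycine cleavage genes Gldc and Amt were low in ATRX KO too, Gldc with 4 reads against 14344 and Amt with a difference of -4.78. Aldh1l1 and Gldc passed the filter on low values through ATRX WT only, which fixed their direction.

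Of the enzymes of glutamine, glutamate, aspartate, arginine and branched-chain amino acids 14 of 23 rose, 8 fell and Gls2 was without a call, and the median was 0.23. Over all tested genes 43.6% rose and 45.9% fell. Arg2, the mitochondrial arginase, rose by 4.95 from a low level, with 7.88, 8.02 and 7.90 RPKM in ATRX KO against 0.269, 0.182 and 0.346 RPKM in ATRX WT. It passed the filter on low values through ATRX KO only, which fixed its direction. Prodh, which degrades proline, rose by 2.56 and Bcat2, the mitochondrial branched-chain transaminase, by 2.19. Glul, glutamine synthetase, fell by 2.65, Asrgl1 by 0.93 and Gpt by 0.85.

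The listed mitochondrial tRNA synthetases and amidotransferase parts did not move as the listed cytosolic synthetases did. The mitochondrial list holds no gene for glycine or lysine. Gars and Kars, which rose by 1.22 and 0.48, are counted as cytosolic here. Of the 20 mitochondrial genes, 8 rose and 12 fell, beside 43.6% and 45.9% of all tested genes. Their median was -0.19 against 1.25, and 1 rose by at least 1 where 12 cytosolic ones did. Pars2, for proline, rose by 1.31, near the median of 1.34 of its 51 neighbours on chromosome 4, Vars2 by 0.52 and Tars2 by 0.49, while Sars2, for serine, fell by 1.37, Cars2 by 0.84 and Aars2 by 0.51. Sars2 had 5.02, 4.93 and 5.00 RPKM against 12.4, 12.6 and 13.5 RPKM, the reverse of its cytosolic counterpart Sars. The difference between the lists was not tested. Among scaffolds of the synthetase complex and relatives 4 of 7 rose and 3 fell. The scaffolds Aimp1, Eef1e1 and Aimp2 rose by 0.79, 0.50 and 0.25, the last with its call lost when libraries were scaled by the table's own read totals (0.05), and Tarsl2, Aarsd1 and Iars2 fell by 1.11, 0.76 and 0.11.

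Of the genes that carry amino acid signals to mTORC1, the kinase complex that matches growth to nutrients, 8 of 23 rose, 14 fell and Wdr24 was without a call, and the median was -0.24. The shares over all tested genes were 43.6% higher and 45.9% lower. Rraga, a GTPase of this route, rose by 1.41, below the median of 1.73 of its 22 neighbours on chromosome 4, Wdr59 by 1.04 and Lamtor3 by 0.84. Gatsl2, which is related to the arginine sensor, fell by 1.58 and Rragd, another GTPase, by 1.33. Rragb, the close relative of Rraga, had 1 read over the 3 ATRX KO libraries and 3000 in ATRX WT. It passed the filter on low values through ATRX WT only, which fixed its direction. The ratio scaled to library size was 1970 in favour of ATRX WT, with a 95% counting interval of 353 to 77700 that covers counting error only.

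**Figure D5:**
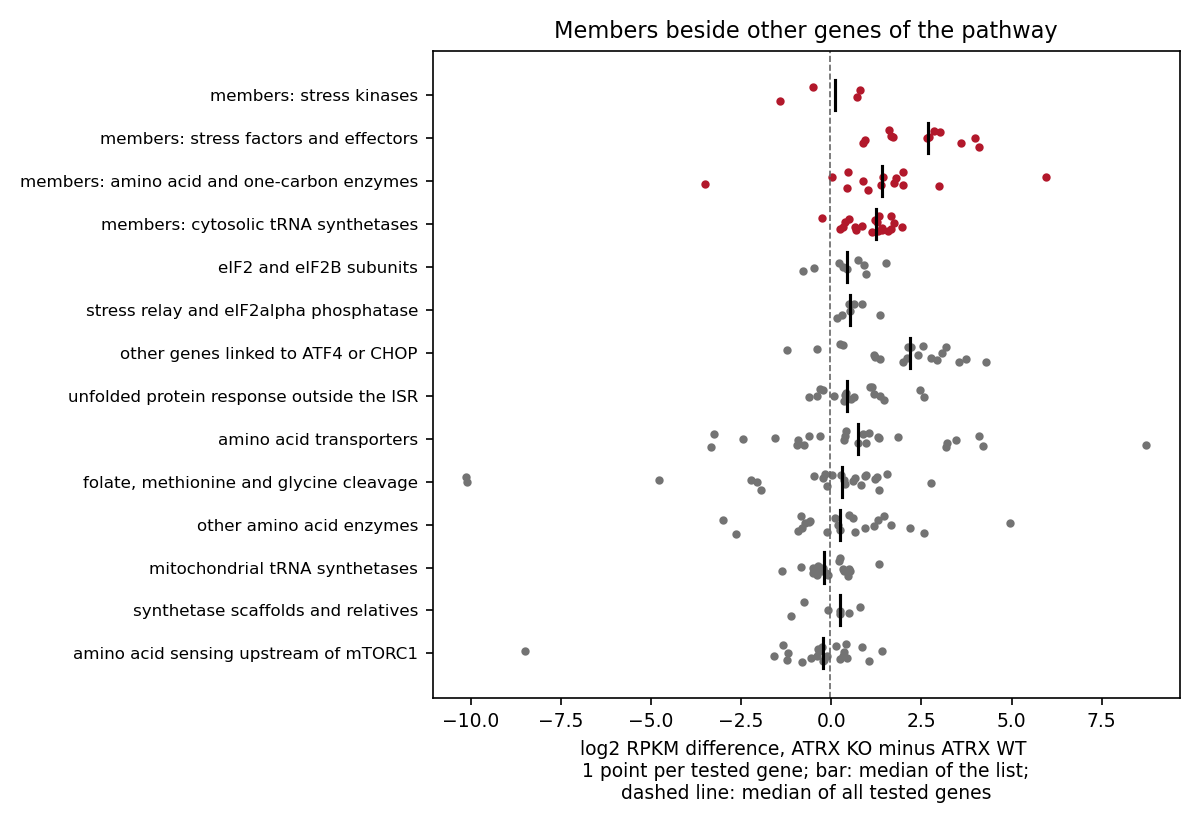
Log2 RPKM difference, ATRX KO minus ATRX WT, for each tested gene of the 50 (red) and of the other lists (grey), with a bar at the median of each list and a dashed line at the median of all tested genes. The factors and effectors and the other genes linked to ATF4 or CHOP (median 2.17) lie farthest right, the mitochondrial synthetases (-0.19) and mTORC1 genes (-0.24) lie about the dashed line, and the point far left in the last row rests on 1 read in ATRX KO.

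Around the 50 genes, the levels of neighbouring genes were compared as well. The median log2 difference of other tested genes within 5 Mb was -0.37 around Cth (16 neighbours), 0.08 around Cbs (176), -0.15 around Trib3 (99), 0.07 around Fgf21 and Ppp1r15a, which lie near each other on chromosome 7 (94 each), and 0.13 around Ddit3 and Shmt2 on chromosome 10 (70 each). Around Asns it was -0.68 (21 neighbours) and around Gars -1.17 (52), opposite in sign to both genes. Over the 49 genes with a position these medians ran from -1.17 to 0.35, which is given as a description with no test. In the other lists, some named genes that rose lie in stretches of chromosome 4 where neighbours also had higher values, with medians of 1.73 around Rraga, 1.34 around Pars2, 1.24 around Oma1, 1.06 around Eif2b3 and 1.05 around Slc6a9.

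In the GENCODE M21 annotation 19 of the 50 genes share exon bases with a gene on the other strand, and for 10 of them that partner was tested. Whether the counting used strand is not given in the sources used here, so reads of such pairs may not be told apart. The largest shared stretches were 1056 bases between Aldh1l2 and D10Wsu102e, 487 between Eif2ak1 and Aimp2, 485 between Eif2ak3 and Gm43292, 452 between Psph and Cct6a, and 312 between Cebpb and Tmem189, and Ddit3 and Mars share 68. On the same strand, Aars shares 1326 exon bases with Exosc6. Cth, Cbs, Trib3, Fgf21, Chac1, Nupr1, Atf4 and Asns share none.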

How the data were processed

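The values are log2 RPKM (log2 of reads per kilobase, scaled by library size), which the authors deposited as 1 table of 13069 genes in 6 libraries (3 ATRX KO, 3 ATRX WT). Per the labels' protocols, libraries were made with a stranded mRNA kit. The authors used edgeR 3.20.9, HTSeq 0.11.2, STAR 2.5.3a, Trim Galore and FastQC, per the submitters' processing notes, which name the builds mm9 and mm10 with no role. Aligner settings and the filter on rows are not given in the sources used here. Whole reads were recovered from the steps of the deposited log2 values for 100% of genes (tolerance 0.0001 reads, mean prior count 2). Reads are used for totals and in 2 alternatives, and the prior count raises low RPKM values slightly. The authors' library sizes were 0.932 to 0.935 of the table's reads for ATRX KO and 1.07 of them for ATRX WT.

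A gene was tested if 3 or more libraries reached log2 RPKM 0, which kept 12201 genes and left out 868. The test was limma 3.58.1 under R 4.3.3, two-sided, with a mean-variance trend in its empirical Bayes step and Benjamini-Hochberg adjustment across the tested genes, and it had 4 residual degrees of freedom with 4.18 from the prior. The scripts were tested on simulated data. RPKM values, means and SDs are on the linear scale, and differences are on the log2 scale. The genes described and the pathway lists were chosen with earlier results of these data known. All 50 genes may be named. From each other list up to 3 rises and 3 falls were named, the largest among genes past adjusted p 0.05 without overlap whose higher group averaged log2 RPKM 1 or more. Some genes of the lists are not reported here by name. Genes named because a count of 5 or fewer asked for it are additional, as is Mthfd2l. Some genes stand in more than 1 list. Replicate numbers come from the titles. Alternatives changed the filter, scaling, pseudocount, variance model, test, block and each library in turn. Promoter sequences are from RefSeq (GRCm38.p6), and exon overlaps from GENCODE M21.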

Additional observations from a re-analysis of the deposited data

How the results depend on the processing

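Over 15 alternatives, 746 of 750 values of single genes kept their direction and their side of the threshold. Shmt1 reversed to -0.18 (limma adjusted p = 0.00038) with the table's own read totals as library sizes and to -0.10 (limma adjusted p = 0.014) after quantile normalization, and Hars lost its call in both (0.04 and 0.06, limma adjusted p = 0.17 and 0.06). The same 2 settings moved the median of the 50 genes from 1.36 to 1.17 and 1.17. The cause was not tested for quantile normalization; scaling by the table's read totals shifts all tested genes, whose median moved by -0.20. Relative to that median the 50 genes stood at 1.39 as deposited, 1.39 with the read totals and 1.19 after quantile normalization. In the list of scaffolds and relatives, genes called higher went from 4 to 2 with the read totals. In the other lists, Glud1 (0.10) was called lower under both scalings (-0.09 and -0.10), and Ears2 (-0.24) was called higher after quantile normalization (0.23). Under both scalings Manf and Ahcyl1 were called lower and Nck1 and Oat lost their calls. Quantile normalization also ended the calls of Lars2, Canx, Hsp90b1 and Slc38a9 and called Gls2 and Wdr24 higher. Read totals ended those of Eif2b1, Nars2, Mtfmt, Pycrl, Fars2, Aimp2 and Yrdc, among others.

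Leaving out each library in turn gave 30 to 31 genes higher by at least 1 and a median of 1.35 to 1.38. Same-numbered libraries did not deviate together (correlations -0.05, 0.05 and -0.04 for numbers 1, 2 and 3), so the numbers gave no sign of pairing. With 3 libraries a group, these correlations cannot show that the samples were unpaired. With the number as a replicate block 45 genes were higher, 4 lower and 31 higher by at least 1, with a median of 1.36, so no call changed. Not every library correlated best with its own number. With 3 libraries of 1 line a group, neither depth nor these settings can separate genotype from line.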
